A study of Mus musculus with 18 samples.

Results

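The genes described here are 10 genes of the spermatid microtubule apparatus, Camsap1, Camsap2, Camsap3, Hook1, Rimbp3, Lrguk, Clip1, Meig1, Spem1 and Spem2, out of 54232 genes counted in round spermatids (RS) of the mouse. They were chosen by name, and all 10 passed edgeR's filter on low counts. RS are haploid germ cells that have finished meiosis and have not begun to elongate. RS were isolated by sedimentation of dispersed testis cells through a gradient of bovine serum albumin from mice 75 to 85 days old, and RNA was sequenced by strand without polyA selection in 6 libraries each of WT, KO and KI, 18 in all. WT mice carry intact GRTH (Ddx25), a testicular RNA helicase. KO mice lack it. KI mice carry a human GRTH gene with a missense mutation and lack the phosphorylated form of the protein. Spermatogenesis halts at the RS in both mutants, so the mutant testes have no elongating spermatids. The comparison asks how the messages of RS depend on GRTH and on its phosphorylated form.

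The manchette is a transient skirt of microtubules that forms around the nucleus of the elongating spermatid, shapes the sperm head and carries cargo towards the growing tail. Each microtubule has a fast-growing plus end, bound by proteins such as CLIP1, and a minus end, which proteins of the CAMSAP family cap and stabilise. HOOK1, RIMBP3, LRGUK, MEIG1 and SPEM1 are needed for a normal head or tail, and mice that lack one of them make malformed sperm.

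Libraries held 18766971 to 26776555 counts assigned to genes, and 21058 genes were tested. Ddx25 was at 538 to 607 normalized CPM (counts scaled to a common library size with TMM factors) in WT. It was at 47.7 to 90.9 in KO and at 0.0456 to 0.519 in 5 KI libraries. Reads were aligned to the mouse genome, so the KI values may not measure the human GRTH gene that KI mice carry. In the library labelled KI 4 Ddx25 was at 56.9, within the KO range, and the nearest library to KI 4 over all genes was KO 2. The median over genes of the squared standardized difference of this pair was 1.59 times that expected from sampling. This index was 2.05 to 3.24 for 6 other close pairs, 5 of them consecutively numbered, against at least 4.73 for all the remaining pairs. No label says that the libraries of a genotype came from separate animals, so the p-values measure the spread between these libraries, which may in part be technical. Markers of late spermatids moved with genotype. All 10 were lower in both mutants, and their summed level was 15744 to 21727 CPM in WT, 1840 to 4670 in KO and 2454 to 3767 in KI. The 6 Leydig cell markers were all higher in both mutants, with sums of 9.76 to 19.7 CPM in WT, 29.9 to 52.0 in KO and 13.4 to 66.1 in KI. Of 6 markers of macrophages and endothelium 2 were higher in each mutant, and of 7 of spermatogonia 2 in KO and 1 in KI. Of 7 Sertoli cell markers 1 was lower in KO and 2 in KI. The part of any of these cell types in the results was not tested. In RNA of a whole fraction, fewer cells of a type and less RNA per cell cannot be told apart.

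Camsap3, Spem1 and Spem2 fell strongly in both mutants, Hook1 fell by a smaller amount, and the other 6 members stayed within 0.4 log2 units of WT. In KO against WT 4 members were called lower and 1, Camsap2, higher, at an adjusted p under 0.1 in edgeR's quasi-likelihood test with Benjamini-Hochberg adjustment over all genes. Over all tested genes 13.5% were called lower and 16.4% higher. Past 1 log2 unit, 3 members were called, all lower, where 1.13% of all genes were. In KI against WT the numbers were again 4 lower and 1 higher, here Lrguk, beside 15.4% and 16.1% of all genes, and the same 3 genes were past 1 log2 unit, where 1.43% of all genes were lower. The KO and KI comparisons share the WT libraries. The members were chosen with earlier results of these data known, so the shares of all genes are given as context and not as a test. The median log2 fold change of the members was -0.03 in KO and -0.34 in KI, and that of all tested genes was 0.03 and 0.05.

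**Figure D1:**
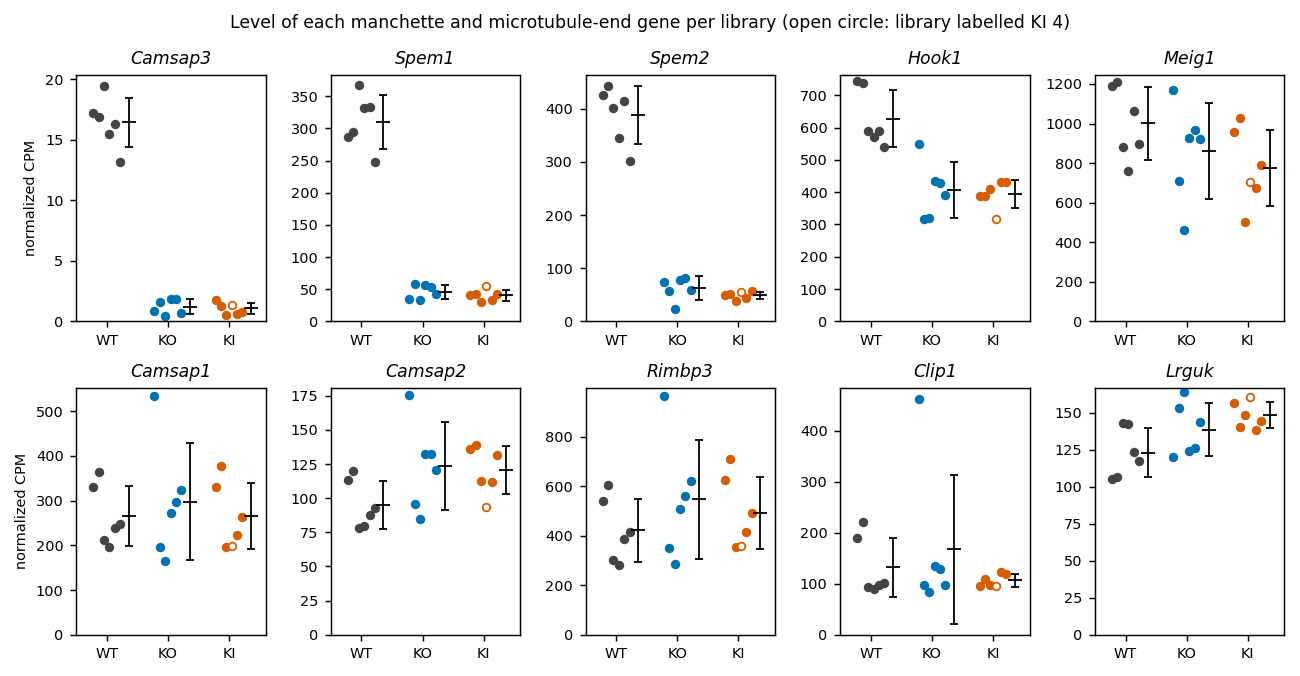
Normalized CPM of each member (y axis, linear, from 0) in the 6 WT, 6 KO and 6 KI libraries (x axis), with 1 point per library and the mean with its SD at the right of each group. Camsap3, Spem1 and Spem2 sit below every WT library in all mutant libraries, whereas Clip1 has a single KO library at 462.

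In WT the 10 genes spanned a wide range of levels. Per kilobase of exon, Meig1 was highest at 908 ± 166 normalized CPM (SD, n = 6), above 99.9% of all tested genes. Spem1 (298 ± 40.6) and Spem2 (237 ± 33.2) came next, and their ranges overlapped. Rimbp3 (78.4 ± 23.9) and Hook1 (75.5 ± 10.6) also overlapped each other, and Camsap1 followed at 31.7 ± 8.0. Clip1, Camsap2 and Lrguk were not separable at 10.7 ± 4.64, 10.3 ± 1.90 and 10.2 ± 1.38. Camsap3 was the lowest at 2.69 ± 0.337, near the middle of all genes (52.9th percentile). In KI both SPEM genes stood lower in the order. Spem1 was at 39.1 ± 8.41 and Spem2 at 29.9 ± 4.43, both overlapping Camsap1 at 31.6 ± 8.84. In KO the same 3 genes overlapped at 44.4 ± 10.4, 38.2 ± 13.5 and 35.6 ± 15.6, below Rimbp3 at 102 ± 44.7.

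Camsap3 encodes the CAMSAP family member best known for anchoring non-centrosomal microtubules in epithelial cells. The gene (ENSMUSG00000044433) lies on the plus strand at chr8:3587293-3609075 of GRCm38, and 9.32% of its exon bases overlap Xab2 on the other strand, from which the counting by strand separates it. Its normalized CPM was 17.2, 16.9, 19.4, 15.5, 16.3 and 13.2 in WT 1 to 6. In KO 1 to 6 it was 0.872, 1.57, 0.427, 1.88, 1.84 and 0.693, and in KI 1 to 6 it was 1.77, 1.28, 0.548, 1.40, 0.654 and 0.816. Every mutant library lay below every WT library, a pattern that 6.44% of all genes showed in KO and 7.91% in KI. The raw counts behind these levels were 287 to 421 in WT but only 9 to 51 in KO and 12 to 40 in KI, so that the mutant levels carry more counting error, all of them above the floor of 3 counts. The mean was 13.5-fold lower in KO and 15.3-fold lower in KI. The log2 fold change was -3.73 (SE 0.292, quasi-likelihood adjusted p = 4.46e-09) in KO and -3.92 (SE 0.296, adjusted p = 1.98e-09) in KI. Against a change of 1 log2 unit the adjusted p was 1.1e-06 and 3.66e-07. Counted from the largest fall, it was number 14 of the 21058 genes in KO and number 4 in KI.

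Neither paralog fell. Camsap1 and Camsap2 encode the other minus-end binding proteins of the family and lie on the minus strand at chr2:25926838-25983282 and chr1:136268123-136346104. Camsap1 was at 330, 364, 213, 197, 240 and 247 normalized CPM in WT 1 to 6, at 533, 197, 164, 272, 296 and 323 in KO and at 330, 376, 197, 199, 224 and 263 in KI. The groups overlapped throughout, with log2 fold changes of 0.17 (SE 0.239, quasi-likelihood adjusted p = 0.689) in KO and -0.00 (SE 0.239, adjusted p = 0.995) in KI. The 95% intervals ran from -0.33 to 0.66 and from -0.50 to 0.49, so a fall of the size seen in Camsap3 lies outside them. Camsap2 was at 113, 120, 78.0, 79.5, 87.6 and 92.7 in WT, at 176, 95.9, 84.4, 132, 133 and 120 in KO and at 136, 139, 113, 93.5, 112 and 131 in KI, again with overlap. Its log2 fold change was 0.38 (SE 0.162, quasi-likelihood adjusted p = 0.0988) in KO, just past the threshold, and 0.34 (SE 0.162, adjusted p = 0.13) in KI, just short of it. The KO call was lost when any of 13 single libraries was left out (all but KI 4, KO 2, KO 3, WT 1 and WT 2), with adjusted p up to 0.264. The KI value passed the threshold without KI 4, KO 1, KO 3 or WT 2 (adjusted p from 0.0812 to 0.0929). DESeq2 did not call the gene in KO (DESeq2 adjusted p = 0.149). The quasi-likelihood call in KO was lost with DESeq2 size factors (adjusted p = 0.131), without a filter on low counts (0.236) and with close pairs summed and KI 4 left out (0.381). It was kept with at least 10 counts in every library, with only the genotypes compared and with the replicate number as a block.

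Taken as a ratio within each library, which cancels the scaling of the library, Camsap3 fell against both paralogs. The log2 ratio of Camsap3 to Camsap1 was -3.98 ± 0.381 (SD, n = 6) in WT, -7.90 ± 0.930 in KO and -7.89 ± 0.501 for the KI libraries. The WT libraries ran from -4.42 to -3.45, the KO libraries from -9.12 to -6.89 and the KI libraries from -8.27 to -7.06. The ratio thus differed from WT by -3.92 in KO and -3.91 in KI, each with an exact permutation p of 0.00216, the smallest that 6 against 6 libraries can give, and an adjusted p of 0.00325 over 6 ratio tests. The log2 ratio of Camsap3 to Camsap2 went from -2.52 ± 0.320 in WT to -6.69 ± 0.760 in KO and -6.79 ± 0.608 in KI. The differences were -4.18 and -4.27, with the same exact permutation p of 0.00216. With close pairs summed and KI 4 left out, the adjusted exact permutation p of both ratios was 0.107 in KO and 0.15 in KI. Those fewer libraries allow no unadjusted p under 0.0357 in KO and 0.1 in KI. Of the normalized CPM per kilobase summed over the 3 genes, Camsap3 made up 6.23% ± 1.51 in WT, 0.439% ± 0.256 in KO and 0.393% ± 0.169 in KI. Camsap2 made up 23.3% ± 1.08, 28.3% ± 3.43 and 29.8% ± 3.24, and Camsap1 remained the largest share at 70.5% ± 2.14, 71.3% ± 3.59 and 69.9% ± 3.18. Levels between genes were compared per kilobase of the exon length given with the counts.

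**Figure D2:**
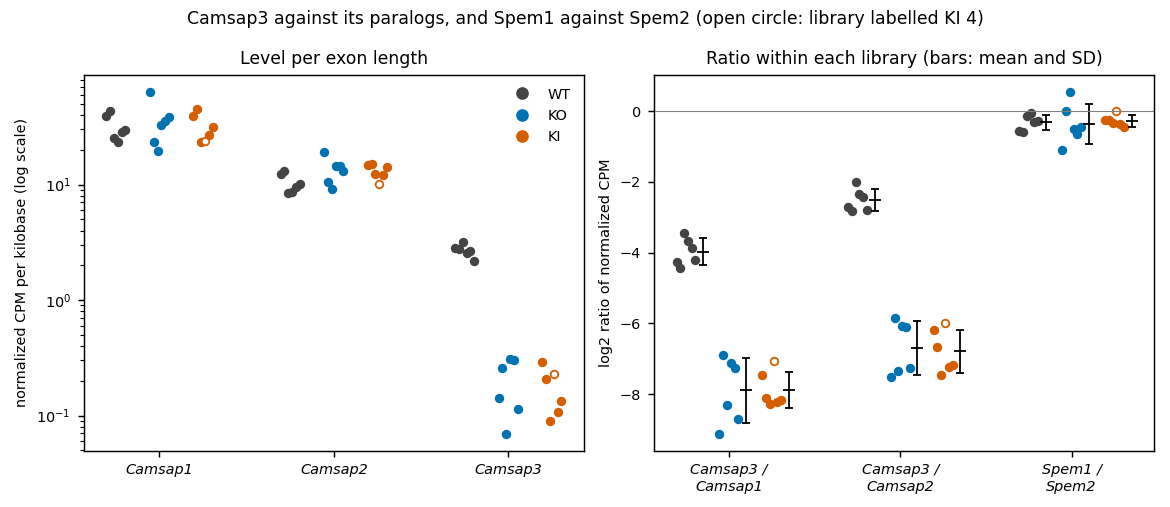
Left, normalized CPM per kilobase of exon (y axis, log scale) of Camsap1, Camsap2 and Camsap3, with 1 point per library. Right, the log2 ratio within each library of Camsap3 to each paralog and of Spem1 to Spem2, with the mean and SD. Camsap3 drops in KO and KI on both scales, and the Spem1 to Spem2 ratio overlaps between the genotypes.

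Spem1 and Spem2 are a neighbouring pair of genes expressed in late spermatids. SPEM1 is known for the removal of cytoplasm from the forming sperm, and its loss gives sperm with bent heads. Both lie on the minus strand of chromosome 11 with 3 exon blocks each, Spem1 (ENSMUSG00000041165) at chr11:69820876-69822180 and Spem2 (ENSMUSG00000044084) at chr11:69816566-69818465, with 2410 bases between them. The 250 bases before the RefSeq start of each are shown because both genes fell together. They are on the minus strand of GRCm38.p6, 5′ to 3′, at chr11:69822166-69822415 for Spem1 and chr11:69818464-69818713 for Spem2. Capitals mark CATTATGA and CTGGCTCT, the longest runs that both windows hold on the same strand.
Spem1: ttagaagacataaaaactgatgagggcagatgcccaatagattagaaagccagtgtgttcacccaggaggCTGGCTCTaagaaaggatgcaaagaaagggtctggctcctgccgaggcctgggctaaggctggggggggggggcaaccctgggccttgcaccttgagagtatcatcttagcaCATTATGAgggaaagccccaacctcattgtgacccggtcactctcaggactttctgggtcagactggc
Spem2: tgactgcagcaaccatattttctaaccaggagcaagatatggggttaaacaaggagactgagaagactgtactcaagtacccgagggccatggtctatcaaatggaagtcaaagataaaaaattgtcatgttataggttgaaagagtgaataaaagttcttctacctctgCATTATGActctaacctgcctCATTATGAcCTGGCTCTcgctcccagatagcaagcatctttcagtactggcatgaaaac
CATTATGA began 68 bases before the start of Spem1 and 80 and 59 bases before that of Spem2, and CTGGCTCT began 180 and 50 bases before. Searched only on the strand of each gene, 0.414% and 1.12% of the 32851 promoter windows in the RefSeq table held these letters. The letters were picked because both SPEM windows hold them, so these shares do not measure how unusual it is to share them. Of the 10 members 8 had a window in the table, and Camsap3 and Rimbp3 had none and were not searched. The letters of the cAMP response element, TGACGTCA, known from promoters of spermatid genes, were in neither SPEM window. Among the 8 members with a window only that of Lrguk held them, as did 1.55% of all windows. Searched on both strands, the GC box core GGGCGG was in windows of Camsap1, Camsap2, Hook1, Clip1 and Meig1, and in 32.7% of all windows. A match of letters is a description and not a binding site.

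The fall of Spem1 was seen in every library. Its normalized CPM was 286, 294, 367, 332, 334 and 248 in WT 1 to 6, against 34.7, 57.6, 33.0, 55.9, 52.9 and 42.9 in KO and 41.2, 42.4, 30.1, 55.2, 33.2 and 42.2 in KI. The highest mutant library, KO 2 at 57.6, was far below the lowest WT library, WT 6 at 248. The log2 fold change was -2.75 (SE 0.172, quasi-likelihood adjusted p = 2.44e-10) in KO and -2.93 (SE 0.174, adjusted p = 9.19e-11) in KI. Spem2 was at 425, 443, 402, 344, 414 and 301 in WT, at 74.9, 58.0, 22.5, 78.7, 82.4 and 58.9 in KO and at 49.0, 50.8, 38.2, 55.1, 43.2 and 57.6 in KI. All mutant libraries lay below WT again, with KO 3 the lowest. Its log2 fold change was -2.63 (SE 0.222, quasi-likelihood adjusted p = 1.34e-08) in KO and -2.99 (SE 0.226, adjusted p = 1.97e-09) in KI. Both genes were past 1 log2 unit in both mutants, with adjusted p between 7.1e-08 and 2.3e-05. The log2 ratio of Spem1 to Spem2 was -0.32 ± 0.222 in WT, -0.36 ± 0.568 for the KO libraries and -0.28 ± 0.157 for KI (SD, n = 6 each). It differed from WT by -0.04 in KO (exact permutation p = 0.883) and 0.04 in KI (exact permutation p = 0.71), less than the spread between libraries. This does not show that the ratio was equal, since the KO libraries ran from -1.11 in KO 1 to 0.55 in KO 3.

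Hook1 encodes a dynein adaptor that links the manchette to cargo and to the nuclear envelope, and it is the gene of the mouse mutant with abnormal sperm head shape. It lies on the plus strand at chr4:95967240-96025413. Its normalized CPM was 743, 737, 589, 571, 589 and 540 in WT 1 to 6, 549, 316, 320, 434, 428 and 390 in KO and 388, 388, 410, 317, 431 and 433 in KI. Every KI library was below every WT library, and in KO only KO 1 overlapped WT. The log2 fold change was -0.63 (SE 0.144, quasi-likelihood adjusted p = 0.0026) in KO and -0.67 (SE 0.144, adjusted p = 0.00134) in KI, so the mean was 1.55-fold and 1.59-fold lower. With the close pairs summed and KI 4 left out, the KI value was -0.56 with adjusted p = 0.166.

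The 5 remaining members were not called in KO, and of these only Lrguk was called in KI. Meig1, at chr2:3409043-3422648, encodes a protein that helps bring cargo to the manchette. It ran from 759 to 1210.1 normalized CPM in WT with a median of 981, from 464 to 1171 in KO with a median of 923.8 and from 505 to 1027 in KI with a median of 747. The log2 fold change was -0.22 (SE 0.201, quasi-likelihood adjusted p = 0.494) in KO and -0.37 (SE 0.201, adjusted p = 0.201) in KI, with wide overlap. Rimbp3, an intronless gene at chr16:17208603-17213982 whose product binds HOOK1, ran from 282 to 605 with a median of 400 in WT, from 284 to 965 with a median of 535 in KO and from 354 to 711 with a median of 453 in KI. Its log2 fold change was 0.38 (SE 0.258, quasi-likelihood adjusted p = 0.33) in KO and 0.22 (SE 0.258, adjusted p = 0.587) in KI. Its 95% intervals, from -0.16 to 0.91 and from -0.31 to 0.76, leave room for a change in either direction.

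Lrguk, at chr6:34029448-34134034, encodes a guanylate kinase-like protein with leucine-rich repeats that acts in manchette shaping and tail growth. It was at 105, 107, 143, 142, 123 and 118 normalized CPM in WT, at 120, 153, 164, 124, 126 and 144 in KO and at 156, 141, 148, 161, 139 and 145 in KI. Of the KI libraries 4 lay above the highest WT library, and the others overlapped WT. The log2 fold change was 0.27 (SE 0.114, quasi-likelihood adjusted p = 0.0877) in KI and 0.17 (SE 0.114, adjusted p = 0.308) in KO. The KI call was lost when any of KI 1, KI 3, KI 4, KI 6, KO 5, WT 1, WT 2 or WT 5 was left out, with adjusted p from 0.101 to 0.189.

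Clip1, at chr5:123577795-123684618, encodes the plus-end protein CLIP-170. It was at 189, 221, 93.7, 90.1, 97.7 and 102 normalized CPM in WT, at 462, 96.9, 84.6, 135, 129 and 98.1 in KO and at 95.8, 109, 97.0, 95.2, 123 and 120 in KI. KO 1, WT 1 and WT 2 stood well above the rest. The log2 fold change in KO was 0.34 (SE 0.338, quasi-likelihood adjusted p = 0.536) with KO 1 and -0.29 (SE 0.216, adjusted p = 0.388) without it. In KI it was -0.31 (SE 0.339, adjusted p = 0.559).

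Some of these members varied together between libraries of 1 genotype. Camsap1 and Rimbp3 were highest in the same libraries in each genotype, namely WT 2 and WT 1, KO 1, and KI 2 and KI 1, and Meig1 was highest in those libraries too. Clip1 was highest in WT 2, WT 1 and KO 1 as well but not in KI, where KI 5 and KI 6 were its highest and KI 1 was among its lowest. Lrguk went the other way in WT, where WT 1 and WT 2 were its lowest. The coefficient of variation in KO was 43.8% for Camsap1, 43.8% for Rimbp3 and 87.0% for Clip1, against a median of 21.7% over all tested genes. For Lrguk it was 12.8%. Camsap3 varied by 12.5% in WT, where the median of all genes was 20.6%, but by 51.7% in KO and 44.4% in KI, where its counts were low and the medians were 21.7% and 25.4%. The pairs WT 1 and WT 2, and KI 1 and KI 2, are among the close pairs above.

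**Figure D3:**
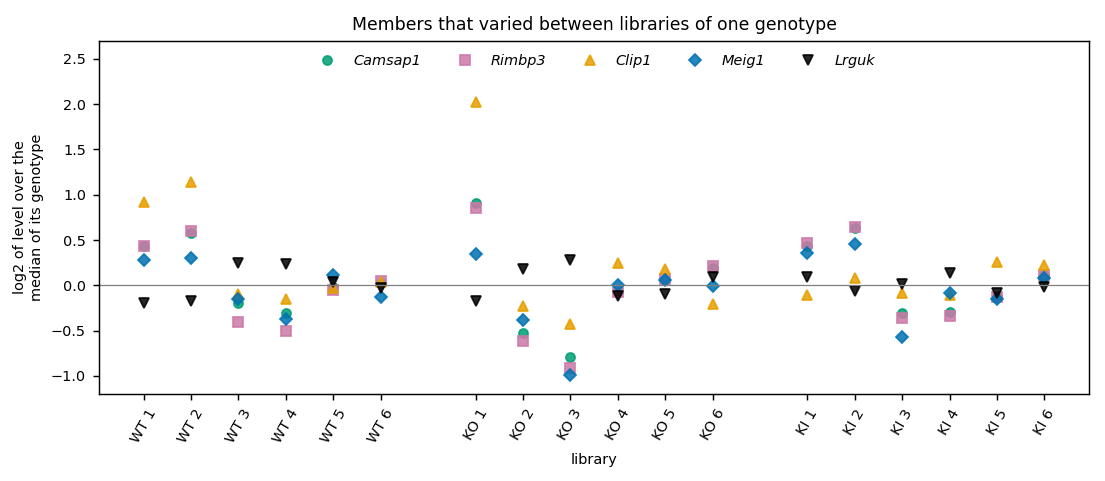
Level of Camsap1, Rimbp3, Clip1, Meig1 and Lrguk in each library (x axis) as the log2 of its ratio to the median of its genotype (y axis). Points of Camsap1, Rimbp3 and Meig1 rise together in WT 1, WT 2, KO 1, KI 1 and KI 2, and Clip1 stands highest in KO 1.

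No member was called between the mutants in KI against KO. By the quasi-likelihood test the lowest adjusted p was 0.961, and 0 of the 10 had an unadjusted p under 0.05. DESeq2 also called 0. Over all genes 0.0997% were called in this comparison, 16 higher and 5 lower in KI of 21058. Without KI 4 the calls over all genes rose to 60 higher and 51 lower of 21257, still with 0 members among them, and the differences of Camsap3, Spem1 and Spem2 were then -0.28, -0.29 and -0.39. The estimates ran from -0.65 for Clip1 to 0.10 for Lrguk. For Camsap3 the difference was -0.19 with a 95% interval from -0.83 to 0.45, for Spem1 -0.18 with an interval from -0.52 to 0.16 and for Spem2 -0.35 with an interval from -0.79 to 0.08. A difference between the mutants of the size of the fall from WT lies outside these intervals, and so does a difference of 1 log2 unit. Only differences within the intervals cannot be told apart from no difference.

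**Figure D4:**
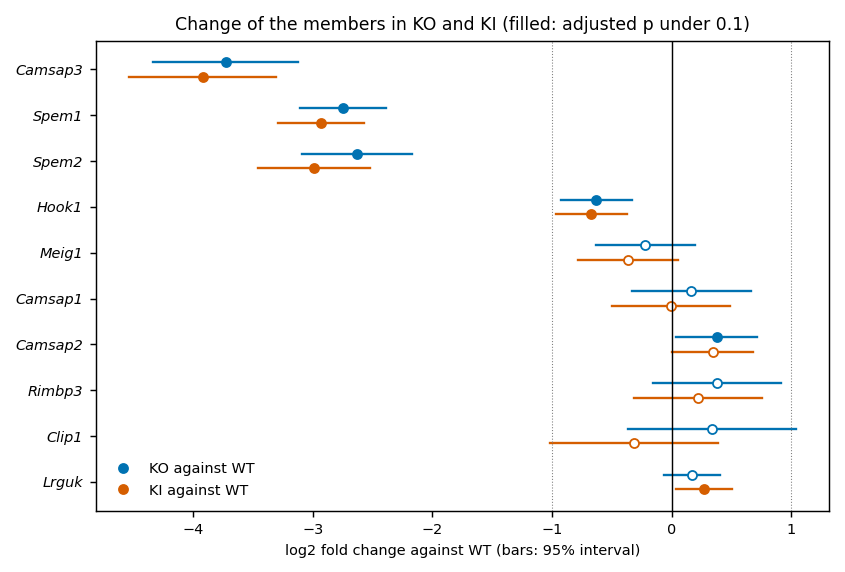
Log2 fold change of each member against WT (x axis) in KO and KI, with the 95% interval as a bar and filled points where the adjusted p was under 0.1. Camsap3, Spem1 and Spem2 lie beyond -1 in both mutants, marked by a dotted line, and the bars of Camsap1, Rimbp3, Clip1 and Meig1 cross 0 in both.

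Paralogs of the other members were measured in the same fit. Hook2, Hook3 and Tspoap1, of the HOOK and RIMBP families, were not called, and Clip3, of the CLIP family, was not called either. Their log2 fold changes were between 0.00 and 0.24 in KO and between 0.13 and 0.27 in KI. Clip2, the gene of the plus-end protein CLIP-115, was low in WT at 1.69 ± 0.201 normalized CPM (SD, n = 6). It rose to 4.70 ± 1.51 in KO and 6.20 ± 1.80 in KI. The libraries ran from 1.47 to 2.05 in WT, from 3.33 to 6.70 in KO and from 3.71 to 9.07 in KI. Its log2 fold change was 1.47 (SE 0.221, quasi-likelihood adjusted p = 3.75e-05) in KO and 1.87 (SE 0.221, adjusted p = 1.42e-06) in KI, and in KI it was past 1 log2 unit (adjusted p = 0.0209), where 0.522% of all genes were higher. Rimbp2, a synaptic paralog of Rimbp3, rose from 1.13 ± 0.359 to 2.54 ± 0.518 in KO and 2.33 ± 0.630 in KI. Its log2 fold changes of 1.15 in KO and 1.03 in KI were both called (quasi-likelihood adjusted p = 0.000689 and 0.00175). Clip4 had a log2 fold change of -0.56 (SE 0.30, quasi-likelihood adjusted p = 0.199) in KO and fell in KI by 0.82 (SE 0.301, adjusted p = 0.0496), a call that was lost with close pairs summed and KI 4 left out. Clip2 and Rimbp2 were at low levels, and markers of Leydig cells and some of other cell types were higher in the mutants. The part of these cell types in the rise of both genes was not tested.

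Of 47 other manchette and microtubule-end genes, 45 matched a gene and 44 were tested. In KO 7 were called higher and 4 lower, and in KI 8 and 5, beside the shares of all genes given above, and the median log2 fold changes were 0.05 and -0.00. Aktip, whose product forms a complex with HOOK proteins, fell most, from a WT mean of 39.4 ± 2.83 normalized CPM (SD, n = 6) to 15.8 ± 1.35 in KO, with KI at 15 ± 2.07. Its log2 fold change was -1.31 (SE 0.107, quasi-likelihood adjusted p = 7.24e-09) in KO and -1.39 (SE 0.107, adjusted p = 2.55e-09) in KI. Against a change of 1 log2 unit the adjusted p was 0.0399 in KI and 0.176 in KO, and the mutants themselves were not called different. That KI call was lost without KI 3, WT 3 or WT 5, without a filter on low counts and with only the genotypes compared. Sun3 and Spag4 encode SUN proteins of the nuclear envelope. Sun3 fell by 0.44 log2 units in KO and 0.75 in KI. Spag4 fell by 0.58 in KI and had a value of -0.37 in KO that was not called. Syne1, which encodes a nesprin, a partner of SUN proteins, was not called, at 0.07 in KO and 0.11 in KI. Among the plus-end proteins of the EB family, Mapre3 fell by 0.40 and 0.46 log2 units in KO and KI and Mapre2 rose by 0.71 and 0.66, while Mapre1 was not called. The other named rises, also in log2 units, were of Macf1, a linker of microtubules and actin (0.69 in KO and 0.57 in KI), Iqcg, needed for the sperm tail (0.48 and 0.39), Wdr47, a partner of katanin and CAMSAP proteins in microtubule control (0.41 and 0.58), Aspm, a spindle pole protein at minus ends (0.36 and 0.43), and Kifc1, a minus-end-directed kinesin (0.31 and 0.51). All 5 were called in both mutants over all 18 libraries. With close pairs summed and KI 4 left out, 2 of the 44 related genes were still called higher and 1 lower in KO, and 4 higher and 1 lower in KI. Of the genes named here those were Aktip and Mapre2 in both mutants, Macf1 in KO, and Wdr47, Aspm and Kifc1 in KI. The others kept their direction but not their call, and Aktip was no longer past 1 log2 unit in KI.

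**Figure D5:**
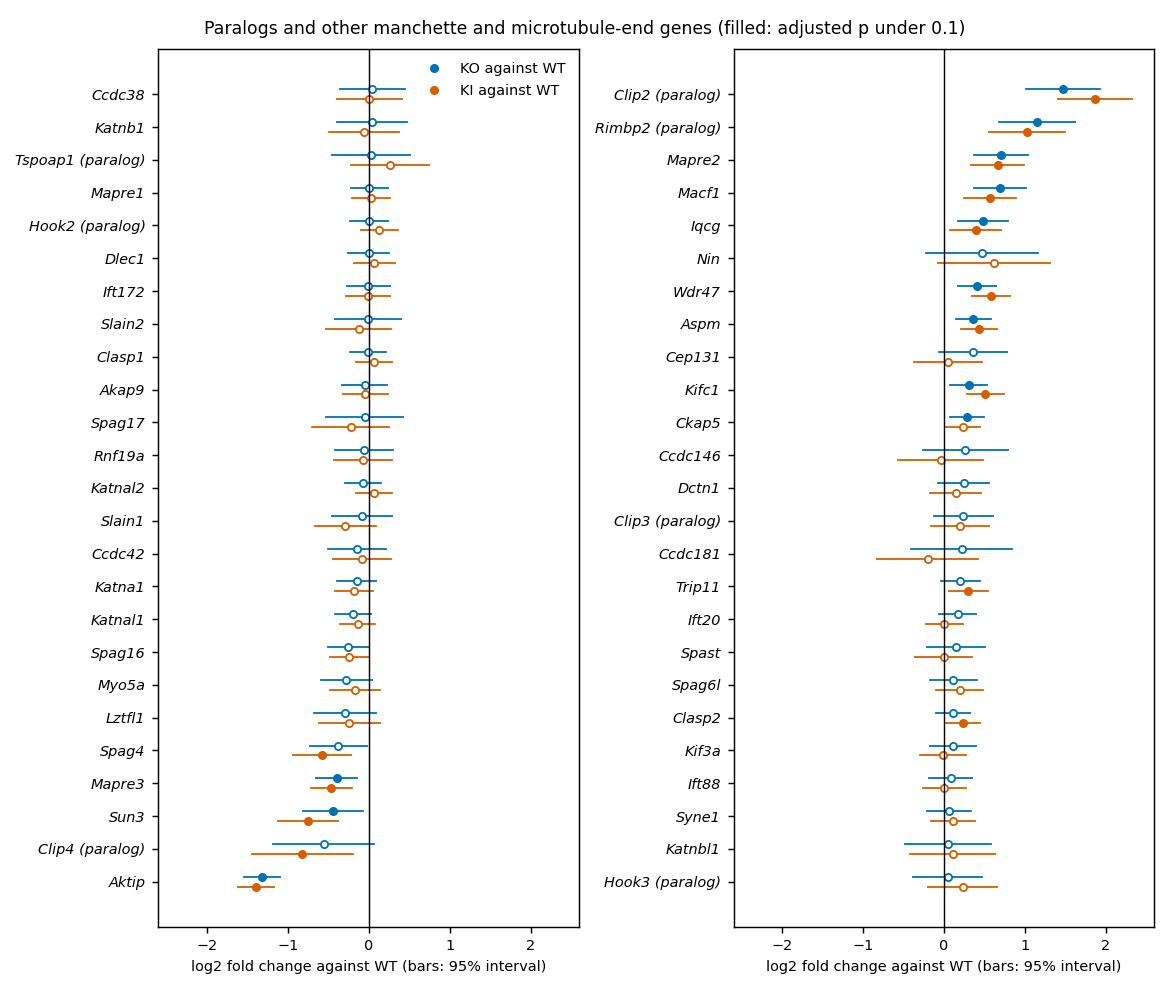
Log2 fold change against WT (x axis) of 7 paralogs and other tested manchette and microtubule-end genes in KO and KI, ordered by the KO value, with 95% intervals as bars and filled points where the adjusted p was under 0.1. Aktip is lowest at -1.31 and -1.39, and Clip2 is highest at 1.47 and 1.87.

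The tested genes whose log2 level followed that of Camsap3 most closely over the 18 libraries were Spatc1 (Pearson r = 0.991), Tfam (0.991), Fscn3 (0.991), Gm5767 (0.990) and Pim1 (0.989), members left out. Among the members, Spem1 (r = 0.985, number 19 of all genes) and Spem2 (r = 0.98, number 76) were most like it, followed by Hook1 (0.796). Camsap1 (0.026) and Camsap2 (-0.451) were not alike. In Camsap3, Spem1 and Spem2 every mutant library lay below every WT library, and the means of the 5 genes named first were also lower in both mutants. The high values thus mostly state which genes fell from WT to the mutants, and all are given as a description. Of the 5 genes, Fscn3, an actin-bundling protein of the testis, went from 118 ± 13.3 normalized CPM in WT to 21.2 ± 6.13 in KO and 19.5 ± 3.79 in KI, and Tfam, a packaging factor of mitochondrial DNA, went from 166 ± 14.7 to 55.8 ± 12.5 and 50.2 ± 7.98. Camsap3, with more than 13-fold in each mutant, had a larger relative fall than any of these 5.

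Beside the members that fell, the markers of late spermatids had a median log2 fold change of -2.13 in KO and -2.37 in KI over 10 genes, with single genes from -3.36 (Prm2) to -1.78 (Tnp1) in KO and from -3.53 to -1.89 in KI. The log2 fold changes of Spem1 and Spem2 lay within these ranges in both mutants, and those of Camsap3, -3.73 and -3.92, lay below them. The markers of early round spermatids had medians of -0.06 and -0.28 over 6 genes, with 1 lower in each mutant. Those of spermatocytes had medians of 0.31 and 0.24 over 7 genes, with 3 higher and 1 lower in KO and 2 higher and 1 lower in KI. The part of the cell mixture in the falls of the members was not tested.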

How the data were processed

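RNA of round spermatids from WT, KO and KI mice was measured in 18 libraries, grouped by the genotype in their labels. The authors used cutadapt 3.4 for trimming, STAR 2.7.8a for alignment to GRCm38 and featureCounts (Subread 2.0.1) for counting by strand on GENCODE M18. Multi-mapping fragments were not counted, and duplicates stayed in. The raw counts were used as deposited. Symbols and positions are from GENCODE M21 on the same build (54079 of 54232 genes).

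In R 4.3.3, edgeR 4.0.16 was used for filterByExpr, TMM factors and 1 quasi-likelihood fit of genotype over all libraries. A change of any amount (glmQLFTest) and past 1 log2 unit (glmTreat) was called at a Benjamini-Hochberg adjusted p under 0.1 over 21058 genes. SE and 95% intervals are of the log2 fold change. Log2 ratios within libraries (prior count of 2) were compared by two-sided exact permutation tests. Alternatives were DESeq2 1.42.0, its size factors, other filters and thresholds, fewer genotypes, a replicate block, left-out libraries and summed close pairs. Promoter windows are from RefSeq, GRCm38.p6. Methods were tested on simulated counts. Counts of 3 or fewer were taken as the floor. This covers counting error only, because duplicates of amplified reads stayed in the counts.

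The members and lists were chosen with earlier results of these data known. Named genes are the 10 members, Ddx25, 7 paralogs, the 5 largest called rises and falls per mutant among 47 related genes, and the 5 genes most correlated with Camsap3. 1 of the related genes is counted but not reported here. Mapre1, Syne1, Prm2 and Tnp1 fall outside this rule and were named after their values were seen. Replicate numbers did not pair the libraries: of 18 same-numbered pairs, 7 had deviations correlated over 0.1.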

Additional observations from a re-analysis of the deposited data

Results flagged for a closer look

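Clip1 in KO 1 was at 462 normalized CPM, far from the other 5 KO libraries at 84.6 to 135. Ddx25 in the library labelled KI 4 was at 56.9 normalized CPM, far from the other 5 KI libraries at 0.0456 to 0.519. In both, the gap to the nearest library was above Dixon's 95% critical share of the range of the group. Of 42 groups of 6 libraries examined 2 were marked, and chance marks about 1 in 20. The cause of either value was not tested.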

How the results depend on the processing

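Leaving out each library in turn kept 4 to 5 members called in KO and 4 to 6 in KI, always 3 past 1 log2 unit in each, 0 between KI and KO, and 9 to 12 (KO) and 11 to 14 (KI) of the other manchette and microtubule-end genes. The differences in the Camsap3 ratios from WT stayed between -4.43 and -3.68. The difference in the Spem1 to Spem2 ratio ran from -0.22 to 0.11 in KO and from -0.0147 to 0.0963 in KI. With a filter of at least 10 counts in every library Camsap3 was not tested. With the replicate number as a block, 5 members were called in KO and 7 in KI (2 higher, 5 lower), the added ones being Camsap2 and Meig1. The numbers do not pair the libraries: the deviations of same-numbered libraries had correlations from -0.44 to 0.48, and 7 of 36 best matches were with the own number.

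With close pairs summed and KI 4 left out, 3 members were called in KI (Camsap3, Spem1 and Spem2), and of the other genes 3 in KO and 5 in KI. The Camsap3 to Camsap1 ratio then differed from WT by -4.07 in KO and -4.10 in KI, and the Camsap3 to Camsap2 ratio by -4.31 and -4.47, with adjusted exact permutation p of 0.107 in KO and 0.15 in KI. These few libraries (3 WT, 5 KO and 3 KI) allow no p under 0.0357 in KO and 0.1 in KI. The Spem1 to Spem2 difference was 0.00604 and -0.032.

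Signs turned for changes that were never called. Camsap1 in KI was 0.0129 with DESeq2 size factors, 0.013 with DESeq2, 0.0245 without a filter, 0.038 with only the genotypes compared and 0.0905 with close pairs summed. Camsap2 in KI against KO was 0.00628, 0.00452, 0.0244, 0.0309 and 0.104 in the same order. Hook1 in KI against KO was 0.0142 without a filter, 0.0227 with only the genotypes compared and 0.0862 with close pairs summed. Hook2 in KO was -0.0248 with both DESeq2 size factors and DESeq2, -0.0333 without a filter and -0.00481 with the block, and Tspoap1 in KO was -0.0101 and -0.0136 in the last 2. Leaving out single libraries gave ranges of -0.0824 to 0.29 for Camsap1, -0.29 to 0.55 for Clip1, -0.0385 to 0.0407 for Hook2, -0.0316 to 0.103 for Hook3 and -0.095 to 0.0956 for Tspoap1 in KO, and -0.13 to 0.11 for Camsap1 in KI. In KI against KO they were -0.297 to 0.0795 for Camsap1, -0.123 to 0.0935 for Camsap2, -0.107 to 0.0622 for Hook1 and -0.289 to 0.0827 for Rimbp3. The cause of these shifts was not tested.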
